A study of Mus musculus with 4 samples.

Results

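The transcripts described here are those of the nuclear end of the canonical Wnt pathway and its feedback in mouse embryonic stem (ES) cells: the TCF and LEF transcription factors, beta-catenin, members of the destruction complex, a Wnt antagonist and a Wnt ligand. The members were the 10 genes Lef1, Tcf7, Tcf7l1, Tcf7l2, Ctnnb1, Axin2, Apc, Gsk3b, Dkk1 and Wnt3, and every probe set whose only annotated gene symbol was 1 of these was used. That gave 26 probe sets for 9 genes, of 45101 probe sets and 18193 genes in the whole series; the transcript level of Tcf7 is not analysed here. Total RNA was measured on 2 arrays from SOCS3-null ES cells and 2 arrays from wildtype ES cells, SOCS3 being a feedback inhibitor of LIF and related cytokine receptors. Both groups carry no other stated treatment, and the labels give no allele, clone, passage, medium or feeder layer. Whether the 2 arrays of a genotype come from different cultures is not stated, and the p-values therefore cover only array-to-array spread, possibly technical.

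Wnt ligands bind Frizzled and LRP receptors and thereby inhibit a destruction complex, built on Axin and APC, in which the kinase GSK3 marks beta-catenin for degradation. Beta-catenin that escapes enters the nucleus and binds TCF and LEF factors, which sit on DNA and repress their targets without it. In mouse ES cells Tcf7l1, long called Tcf3 in that field, restrains genes of self-renewal, and inhibition of GSK3 is used to keep the cells undifferentiated.

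Intensities are on a linear scale, and changes are SOCS3-null minus wildtype on log2(intensity + 16), with the standard error (SE) of the fit. A probe set was called where the limma adjusted p over all 27022 probe sets tested was under 0.05. Array medians were 15.8 to 16, so an intensity near 16 is dim. The targeted transcript, Socs3, was 19.3 and 12.9 on the SOCS3-null arrays and 3024 and 1884 on the wildtype arrays on its brightest probe set, and its 3 probe sets changed by -6.23 to -4.15, all called. Of 8 ES cell markers none was called (limma adjusted p 0.0515 to 0.974). Their summed intensity was lower on the SOCS3-null arrays, at 38142 and 33619, against 50059 and 49504 on the wildtype arrays. Pou5f1 was 11567 and 10524 on the SOCS3-null arrays and 10524 and 11675 on the wildtype arrays. Nanog, Sox2 and Zfp42 had changes of -0.42, -1.01 and -1.70. Of 17 tested markers of the primitive and extraembryonic endoderm 15 were called higher and 0 lower. The shares of all genes tested were 11.2% higher and 8.07% lower. Gata4, Sox17 and Foxa2 had wildtype means of 4.71, 4.34 and 4.51 on the log2 scale, under the filter floor of 4.72. They passed the filter on dim probe sets through SOCS3-null cells alone, and their calls lend this count no support. The summed intensity of all 18 was 61708 and 64160 on the SOCS3-null arrays and 3527 and 4003 on the wildtype arrays, none at 0. Hnf4a and Ttr were not called and Afp was too dim to test. Of 5 tested neuroectoderm markers 3, Otx2, Tubb3 and Neurod1, were called lower and 0 higher, beside the same shares of all genes. Pax6 and Nes had changes of -0.36 and 0.22 and were not called, and Sox1 and Zic1 were too dim to test. Pax6 was dim on the wildtype arrays too, at 13.3 and 15.4. The sum of all 7 was 255 and 247 on the SOCS3-null arrays and 991 and 975 on the wildtype arrays, none at 0. Most of the wildtype sum came from the 3 called genes. The called markers of both sets move with every difference between genotypes given below, and their part in those differences was not tested. In bulk RNA fewer cells of a type cannot be told apart from less RNA per cell.

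Among the members, Lef1 fell and Dkk1 rose in SOCS3-null cells, and Tcf7l2 rose on 1 of its 4 probe sets. Ctnnb1, Tcf7l1, Axin2, Apc, Gsk3b and Wnt3 had no called probe set. In all, 2 of 26 member probe sets were called higher, where 8.55% of all probe sets tested were, and 2 were called lower, against 7.3%. Together that is 15.4% of the member probe sets and 15.9% of all probe sets tested. As a group the members were thus called about as often as the array as a whole. Both Lef1 probe sets and Dkk1 1420360_at passed the filter on dim probe sets through 1 genotype only, and their calls lend these counts no support. Without the filter on dim probe sets, 3.85% of all were called, 2.12% higher and 1.72% lower, and of the members 0 were called higher and 2 lower. The median change of the 26 was 0.02, and that of all probe sets tested was -0.02. The SOCS3-null arrays lay both above or both below the wildtype arrays for 9 member probe sets in each direction, or 34.6%, where this held for 27.2% (above) and 34.8% (below) of all probe sets tested. Several probe sets of 1 gene read the same RNA and are not replicates of each other.

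**Figure D1:**
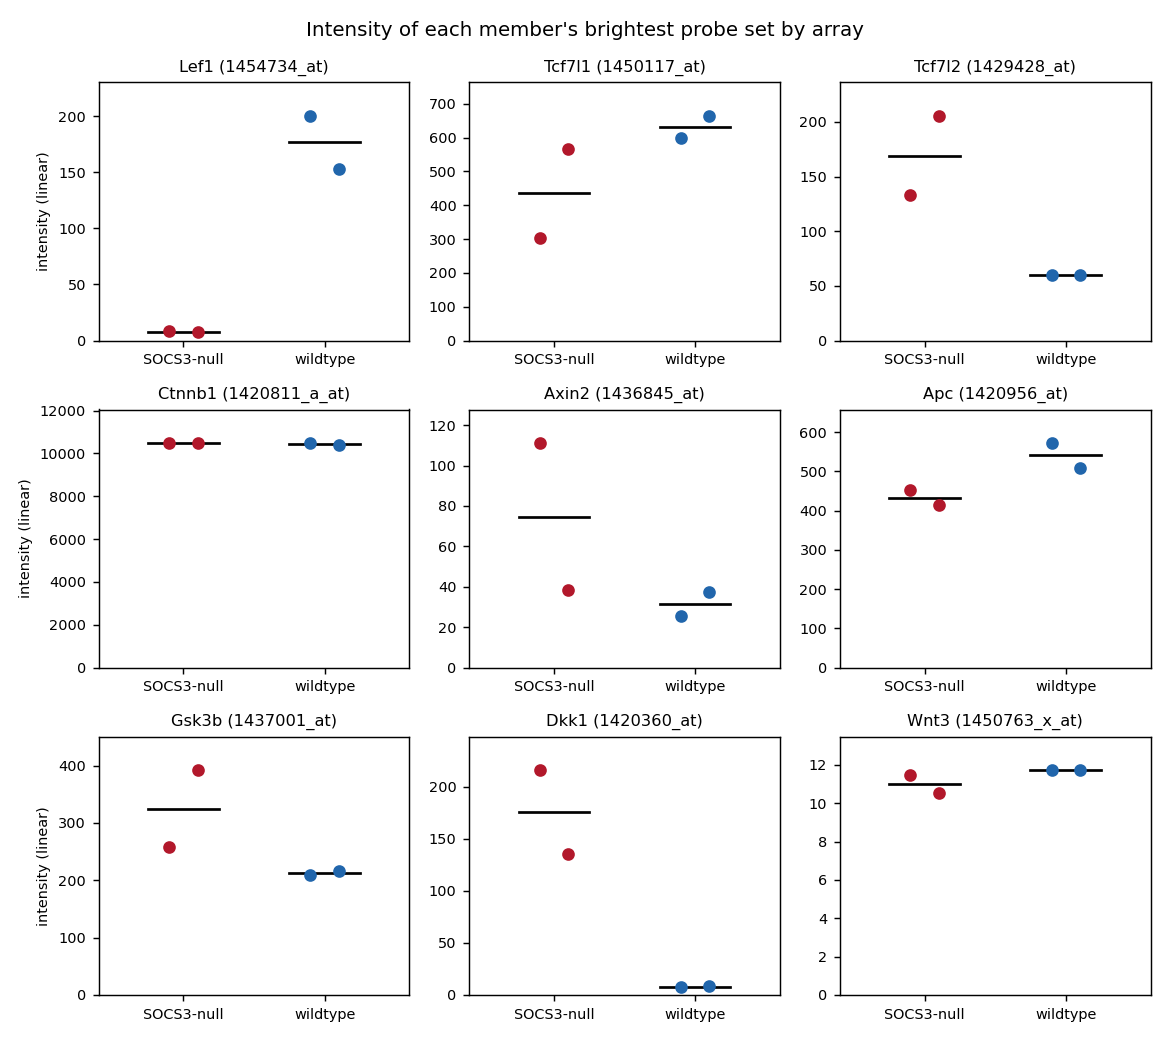
Intensity on a linear scale of the brightest probe set of each of the 9 members, by array, with SOCS3-null arrays in red and wildtype arrays in blue; points are arrays and horizontal lines group means (n = 2), and each panel has its own axis from 0. Lef1 is near 8 on both SOCS3-null arrays and Dkk1 near 8 on both wildtype arrays, while the Ctnnb1 points lie between 10409 and 10476.

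Of the DNA-binding factors, Lef1, a high-mobility-group factor that needs beta-catenin to activate its targets, had, with Dkk1, 1 of the 2 largest changes of the members. Which of the pair was larger in size depended on the arrays used: without SOCS3-null replicate 2 the changes were -2.98 for Lef1 and 3.29 for Dkk1, and without wildtype replicate 1 they were -2.83 and 2.96. Its brightest probe set, 1454734_at, read 8.20 and 7.19 on the SOCS3-null arrays, against 200.1 and 153 on the wildtype arrays. Both SOCS3-null values were below the array medians and both wildtype values far above them, so the groups did not overlap. The means were 7.69 ± 0.715 in SOCS3-null and 177 ± 33.4 in wildtype cells (SD, n = 2), a change of -3.01 (SE 0.15, limma adjusted p = 0.00874). The other Lef1 probe set, 1421299_a_at, read 6.71 and 8.21 on the SOCS3-null arrays and 68.6 and 57.0 on the wildtype arrays, and changed by -1.75 (SE 0.11, limma adjusted p = 0.0107). Both probe sets thus put Lef1 at a dim level in SOCS3-null cells, where the size of the change is set by the pseudocount: at pseudocounts of 1 and 64 it was -4.34 and -1.74 for the first and -2.92 and -0.83 for the second. With any 1 array left out the changes were -3.19 to -2.83 and -1.85 to -1.64, and neither was called any longer (adjusted p 0.0851 to 0.187), as held for every probe set of the series. Such a fit has 1 array in a genotype and takes the spread from the other genotype alone, so a call lost there says nothing about stability.

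The promoter of Lef1 is shown because Lef1 has the called falls among the members. The window runs from 250 bases before to 50 after the most upstream of 4 RefSeq transcript starts (GRCm38.p6, chr3:131110047-131110346, plus strand), and capitals would mark TCAAAG, the core of the TCF and LEF site, on either strand.
Lef1: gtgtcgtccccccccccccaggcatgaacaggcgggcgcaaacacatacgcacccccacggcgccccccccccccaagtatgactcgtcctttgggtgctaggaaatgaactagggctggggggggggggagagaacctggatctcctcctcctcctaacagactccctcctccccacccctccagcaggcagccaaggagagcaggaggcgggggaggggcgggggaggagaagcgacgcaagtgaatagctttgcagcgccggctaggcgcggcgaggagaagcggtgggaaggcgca
This window held no TCAAAG, which 16% of the 32851 RefSeq promoter windows of that length hold on either strand. The window at the most downstream start of Lef1 held 2, at 180 and 120 bases before that start. The longer form ATCAAAG, which contains TCAAAG and occurs in 3.73% of all windows, and TTCNNNGAA, a form of the STAT site that reads the same on both strands and occurs in 8.3%, were found in 0 of the 15 windows searched. These windows belong to 9 of the 10 members: Tcf7 is included, with 2, and Apc was not searched. A match is a description of the letters and not a bound site, and these arrays measured no binding.

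Tcf7l2, the TCF factor of intestinal stem cells, was higher on its brightest probe set. On 1429428_at it read 133 and 205 on the SOCS3-null arrays, against 59.8 and 60.4 on the wildtype arrays. Both SOCS3-null values exceeded both wildtype values, and the SOCS3-null arrays differed from each other far more than the wildtype arrays did. The means were 169 ± 51.4 in SOCS3-null and 60.1 ± 0.422 in wildtype cells (SD, n = 2), a change of 1.25 (SE 0.22, limma adjusted p = 0.0434). Probe set 1429427_s_at read 36.1 and 76.4 on the SOCS3-null arrays, against 22.9 and 21.3 on the wildtype arrays, with a change of 0.87 (SE 0.31, limma adjusted p = 0.157). The dimmer 1425229_a_at had a change of 0.39 (limma adjusted p = 0.163) and 1426639_a_at one of 0.03 (0.838). All 4 changes were above 0, and SOCS3-null replicate 2 was the higher SOCS3-null array on each. The call on 1429428_at was lost with a pseudocount of 64 (change 0.89, adjusted p = 0.0701), without the filter on dim probe sets (0.136), with the replicate number as a block (0.0597) and with any 1 array left out (0.97 to 1.54, adjusted p 0.0834 to 0.273).

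The promoter window of Tcf7l2 at the more upstream of its 2 RefSeq starts (GRCm38.p6, chr19:55741560-55741859, plus strand) is given for comparison with those of Lef1 and Dkk1, with the same use of capitals. It held no match.
Tcf7l2: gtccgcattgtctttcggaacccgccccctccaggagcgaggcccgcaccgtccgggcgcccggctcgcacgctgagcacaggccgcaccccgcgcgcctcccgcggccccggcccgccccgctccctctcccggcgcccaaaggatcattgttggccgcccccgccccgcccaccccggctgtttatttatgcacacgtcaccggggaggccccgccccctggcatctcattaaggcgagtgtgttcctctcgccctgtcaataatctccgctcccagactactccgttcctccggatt

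Tcf7l1 is the TCF factor best known in mouse ES cells, as a repressor of Nanog and other genes of self-renewal. On 1450117_at it read 302 and 568 on the SOCS3-null arrays, against 597 and 664 on the wildtype arrays. SOCS3-null replicate 1 was low and replicate 2 lay just under the wildtype arrays. The change was -0.58 with an SE of 0.33 (limma adjusted p = 0.324), and with 1 array left out it ran from -1.02 to -0.15, the smallest without SOCS3-null replicate 1. The other probe set, 1436207_at, read 142 and 242 on the SOCS3-null arrays and 202 and 246 on the wildtype arrays, so the groups overlapped (change -0.25, SE 0.29, limma adjusted p = 0.605), and without SOCS3-null replicate 1 its change was 0.11. Of 5 other genes that Tcf7l1 is known to repress in mouse ES cells, 1 was called higher and 1 lower, where 11.2% and 8.07% of all 12732 genes tested were. Tfcp2l1, a transcription factor of the naive state, rose by 1.23 (SE 0.16, limma adjusted p = 0.0252), on 1 of its 2 probe sets. The nuclear receptor gene Nr5a2 changed by -0.90 (SE 0.085, limma adjusted p = 0.0157) and was called on 2 of its 3. Nanog, Esrrb and Klf2 were not called, and the median of the 5 was -0.42.

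Ctnnb1 encodes beta-catenin, the co-activator that TCF and LEF factors recruit and also a part of cadherin junctions. Its brightest probe set, 1420811_a_at, read 10476 and 10476 on the SOCS3-null arrays, against 10476 and 10409 on the wildtype arrays. The deposited value was identical on 3 of the 4 arrays, as it was on 3 or more arrays for 1438 of 45037 probe sets; how the authors' summarisation gave such values is not given in the sources used here, and the spread of this probe set is therefore not a measure of array error. Probe set 1430533_a_at read 1939 and 1625 on the SOCS3-null arrays and 2072 and 2335 on the wildtype arrays, a change of -0.31 (SE 0.13, limma adjusted p = 0.207) with no overlap of the groups. On 1450008_a_at the values were 1964 and 1725 on the SOCS3-null arrays and 1842 and 1923 on the wildtype arrays, which overlapped (change -0.03, SE 0.098, limma adjusted p = 0.864). Transcript level does not measure the stability of the protein, through which the pathway acts.

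**Figure D2:**
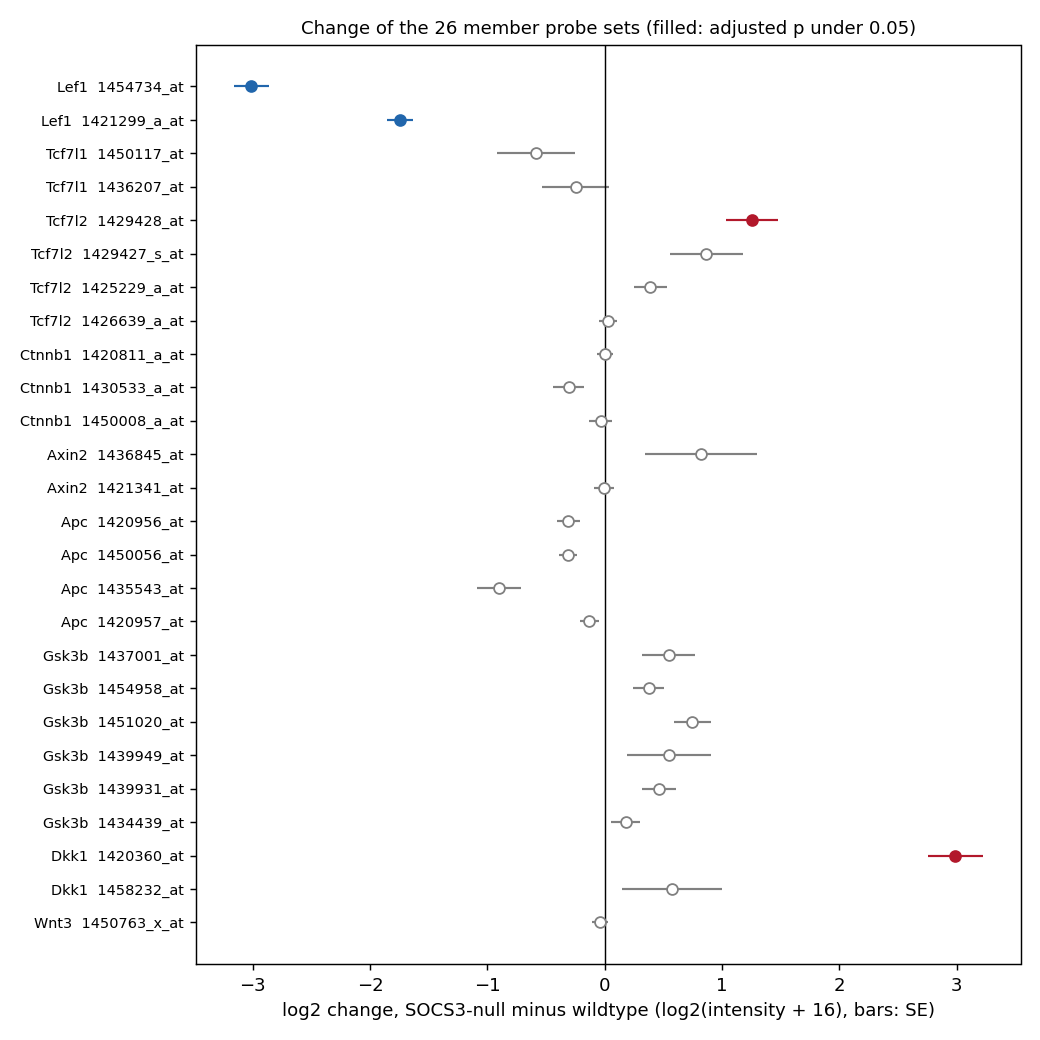
Log2 change (SOCS3-null minus wildtype, log2(intensity + 16)) of the 26 member probe sets with bars for the SE of the limma fit; filled points had an adjusted p under 0.05, red above 0 and blue below. Both Lef1 probe sets lie at -3.01 and -1.75, Dkk1 has points at 2.99 and 0.57, all 4 Apc points are below 0 and all 6 Gsk3b points above it. Points of the same gene read the same RNA and are not replicates.

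In the destruction complex, the scaffold gene Apc had both SOCS3-null arrays below both wildtype arrays on each of its 4 probe sets, and none was called. This order held for 34.8% of all probe sets tested, and the 4 read the same RNA. The brightest, 1420956_at, read 452 and 414 on the SOCS3-null arrays, against 572 and 510 on the wildtype arrays (change -0.31, SE 0.10, limma adjusted p = 0.130). The largest difference was on 1435543_at, which read 69.1 and 95.5 on the SOCS3-null arrays, against 183 and 150.1 on the wildtype arrays (change -0.90, SE 0.18, limma adjusted p = 0.0566). It was called with quantile normalization (-0.94, 0.0467) and when the dimmest 60% of probe sets were left untested (0.0209), and not with the replicate number as a block (0.104). On 1450056_at and 1420957_at the changes were -0.31 and -0.13 (limma adjusted p 0.0779 and 0.349). With the mean of each gene's probe sets fitted over 12732 genes, an alternative chosen after seeing the data, Apc changed by -0.41 (SE 0.077, limma adjusted p = 0.035), and Lef1 (-2.38, 0.00434) and Dkk1 (1.78, 0.0328) were the other members called.

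Gsk3b, the kinase gene of the complex, had changes of 0.18 to 0.75 on its 6 probe sets, all above 0, and none was called. On 1451020_at it read 184 and 245 on the SOCS3-null arrays, against 121 and 119 on the wildtype arrays (change 0.75, SE 0.16, limma adjusted p = 0.059). Its brightest probe set, 1437001_at, read 257 and 392 on the SOCS3-null arrays and 210 and 217 on the wildtype arrays (change 0.54, SE 0.22, limma adjusted p = 0.196). The changes on 1454958_at and 1439931_at were 0.37 and 0.46 (limma adjusted p 0.159 and 0.126). The groups did not overlap on these 4, with SOCS3-null above wildtype, as held for 27.2% of all probe sets tested. The groups overlapped on 1439949_at and 1434439_at (changes 0.55 and 0.18, limma adjusted p 0.375 and 0.415). All 6 read the same RNA. The mean over the 6 changed by 0.48 (SE 0.15, limma adjusted p = 0.0996). The call on 1451020_at appeared, among the alternatives run, only when the dimmest 60% of probe sets were left untested (0.0261).

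Axin2, a scaffold of the complex that is itself induced by beta-catenin and so serves as a readout of the pathway, was set by 1 array. On 1436845_at it read 111 and 38.2 on the SOCS3-null arrays, against 25.4 and 37.5 on the wildtype arrays. SOCS3-null replicate 1 was high, while SOCS3-null replicate 2 and wildtype replicate 2 were nearly equal. The change was 0.82 with an SE of 0.48 (limma adjusted p = 0.332), and without SOCS3-null replicate 1 it was 0.20. The other probe set, 1421341_at, was dim, at 11.6 and 9.78 on the SOCS3-null arrays and 9.97 and 11.6 on the wildtype arrays (change -0.01, limma adjusted p = 0.975). The summed intensity of 8 fibroblast and feeder markers also differed within groups, being 3740 and 2411 on the SOCS3-null arrays, against 2157 and 3777 on the wildtype arrays; 0 of 7 tested were called, none was at 0, the collagen genes Col1a1, Col1a2 and Col3a1 were above the array medians on every array, and the part of these cells in the Axin2 values was not tested.

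Dkk1 encodes a secreted antagonist that binds the LRP co-receptors, is a target of beta-catenin and in the mouse embryo is made in the anterior visceral endoderm. On 1420360_at it read 216 and 136 on the SOCS3-null arrays, against 7.17 and 8.09 on the wildtype arrays. The wildtype values lay below the array medians and both SOCS3-null values far above. The means were 176 ± 56.5 in SOCS3-null and 7.63 ± 0.650 in wildtype cells (SD, n = 2), a change of 2.99 (SE 0.24, limma adjusted p = 0.0127). On the other probe set, 1458232_at, SOCS3-null replicate 1 read 38.0 and replicate 2 read 8.40, against 8.40 and 8.37 on the wildtype arrays, so only 1 array stood out (change 0.57, SE 0.43, limma adjusted p = 0.432). The change on 1420360_at was 4.32 and 1.72 at pseudocounts of 1 and 64, and 2.68 to 3.29 with any 1 array left out. Without the filter its limma adjusted p was 0.0508, so that it was not called. Both Lef1 probe sets had SOCS3-null means, and both Dkk1 probe sets wildtype means, under the filter floor of 4.72 on the log2 scale. These 4 therefore passed the filter through the other genotype. The calls among them, on both Lef1 probe sets and on Dkk1 1420360_at, lend the counts above no support.

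The promoter of Dkk1 (GRCm38.p6, chr19:30549447-30549746, minus strand, given 5′ to 3′ along the gene) is shown because Dkk1 has the larger of the called rises among the members. The capitals mark TCAAAG on either strand.
Dkk1: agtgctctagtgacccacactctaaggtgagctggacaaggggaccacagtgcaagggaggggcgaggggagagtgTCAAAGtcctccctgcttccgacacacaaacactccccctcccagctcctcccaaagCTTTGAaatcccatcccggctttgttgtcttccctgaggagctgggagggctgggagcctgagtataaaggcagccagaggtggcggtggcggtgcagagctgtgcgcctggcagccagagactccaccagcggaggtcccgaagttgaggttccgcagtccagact
It held 2 matches, at 174 and 117 bases before the start, the second on the opposite strand. Of the 15 windows, which include those of Tcf7 and none of Apc, 3 held TCAAAG: this one, that of Gsk3b (77 bases before the start) and the most downstream of Lef1.

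Wnt3, the ligand that the mouse embryo needs to form the primitive streak, was dim on its only probe set, 1450763_x_at. It read 11.5 and 10.5 on the SOCS3-null arrays, against 11.7 and 11.7 on the wildtype arrays. The change was -0.04 (SE 0.069, limma adjusted p = 0.754), and at this signal a small difference was not detectable. Of 8 measured mesoderm and primitive streak markers 3 passed the filter and 0 were called (limma adjusted p 0.06 to 0.992). Eomes read 79.1 and 87.5 on the SOCS3-null arrays, against 45.5 and 27.7 on the wildtype arrays (change 0.94, SE 0.20, limma adjusted p = 0.06). Gsc and Kdr had changes of -0.07 and -0.0015.

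The 5 genes most like Lef1 were found by the smallest Euclidean distance between log2 values centred per gene over the 4 arrays, among 12731 other genes. They were Bnc2, Enox1, Apoa2, Armcx2 and Gm9564, at distances of 0.22 to 0.33 and with changes of -3.04 to -2.70. Bnc2, a zinc finger gene, read 16.5 and 11.7 on the SOCS3-null arrays and 239 and 222 on the wildtype arrays. With 4 arrays in 2 groups this measure mostly reads the size of the change.

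The rest of the pathway was described from lists of ligands, receptors, antagonists, destruction complex, nuclear co-factors and targets, in which the brightest probe set stood for each gene. Of 104 such genes outside the members, 102 had a named probe set and 80 passed the filter on dim values. Of these 80, 6 were called higher and 8 lower, or 7.5% and 10%, where 11.2% and 8.07% of the 12732 genes tested were, and 66 were not called. Their median change was -0.05, beside -0.005 over all genes. Here too the share called, 17.5%, was near the 19.3% of all genes.

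**Figure D3:**
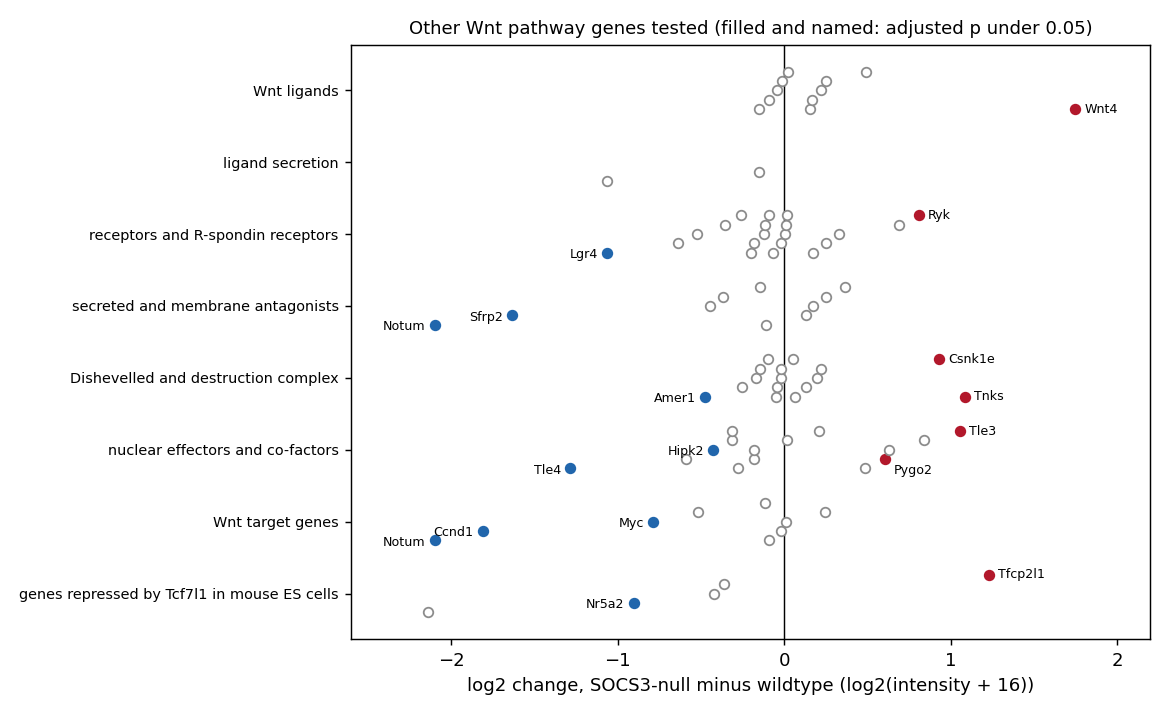
Log2 change (SOCS3-null minus wildtype, log2(intensity + 16)) of the tested Wnt pathway genes outside the members, by list. A further list holds the genes repressed by Tcf7l1, which the counts of pathway genes leave out. Each point is the brightest probe set of a gene, vertical scatter within a list has no meaning, and filled, named points had a limma adjusted p under 0.05. Klf2, of the Tcf7l1 list, is farthest to the left with -2.14 and was not called. Notum stands in the lists of antagonists and of targets, with -2.10, and Wnt4 is farthest to the right with 1.75.

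Of 18 ligands listed outside the members 11 were tested. Wnt4 was called higher and the others were not called, beside 11.2% higher and 8.07% lower of all genes tested. Wnt4, a ligand of kidney and gonad development, read 116 and 83.5 on the SOCS3-null arrays and 18.2 and 18.1 on the wildtype arrays (change 1.75, SE 0.16, limma adjusted p = 0.0156); a second probe set changed by 0.19 and was not called. Of the ligand secretion genes Porcn and Wls neither was called (changes -1.07 and -0.15, limma adjusted p 0.0525 and 0.768). Of 20 tested receptors, R-spondins and their partners 1 was called higher and 1 lower, beside the same shares of all genes. Ryk, a receptor with an inactive kinase domain, rose by 0.81 (SE 0.11, limma adjusted p = 0.0279). Ryk was called on 2 of its 3 probe sets tested. Lgr4, a receptor for R-spondins, changed by -1.07, with means of 239 ± 27.4 in SOCS3-null and 517 ± 28.2 in wildtype cells (SD, n = 2; SE 0.11, limma adjusted p = 0.0183).

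Of 10 tested antagonists other than Dkk1, 0 were called higher and 2 lower, beside 11.2% higher and 8.07% lower of all genes tested. Notum, which removes the lipid that Wnt ligands need for activity, averaged 14.8 ± 2.55 in SOCS3-null and 117 ± 21.3 in wildtype cells (SD, n = 2; change -2.10, SE 0.15, limma adjusted p = 0.0117). Sfrp2, a decoy that shares the Wnt-binding domain of Frizzled, read 8.56 and 6.66 on the SOCS3-null arrays and 55.3 and 59.3 on the wildtype arrays (change -1.64, SE 0.084, limma adjusted p = 0.009). Both were dim in SOCS3-null cells, and the SOCS3-null mean of Sfrp2, 4.56 on the log2 scale, was under the filter floor, so that Sfrp2 passed the filter through wildtype and its call lends the counts of lower genes no support.

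Of 16 tested genes of Dishevelled and the destruction complex, Tnks and Csnk1e were called higher and Amer1 lower. Of all genes tested 11.2% were called higher and 8.07% lower. Tnks encodes tankyrase, which marks Axin for degradation, and read 1091 and 1094 on the SOCS3-null arrays and 515 and 497 on the wildtype arrays (change 1.09, SE 0.069, limma adjusted p = 0.0109). It was called on 1 of its 3 probe sets tested, whose changes ran from 0.13 to 1.09. The casein kinase gene Csnk1e changed by 0.93 and Amer1, an APC-binding protein gene, by -0.48 (limma adjusted p 0.0465 and 0.0457). Csnk1e was called on 1 of 3 probe sets tested and Amer1 on 1 of 2. Of 15 tested nuclear co-factors 2 were called higher and 2 lower, beside the same shares of all genes. Among them were 2 of the 5 Groucho family genes listed. Tle3 rose by 1.06 (limma adjusted p = 0.0118), on 2 of its 4 probe sets. Tle4 changed by -1.29 (limma adjusted p = 0.0146) and was called on each of its 3, with means of 392 ± 50.6 in SOCS3-null and 975 ± 0.860 in wildtype cells (SD, n = 2). Of the other Groucho family genes Tle1 had a change of -0.18 and Tle5 one of 0.84 (limma adjusted p 0.59 and 0.06), and Tle2 was too dim to be tested. Pygo2, a chromatin adaptor of beta-catenin, rose by 0.60 (0.0298), and the kinase gene Hipk2 changed by -0.43 (0.0403) on 1 of its 6 probe sets.

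Of 9 tested Wnt targets outside the members 3 were called lower and 0 higher, beside 8.07% lower and 11.2% higher of all genes tested. The cell cycle gene Ccnd1 read 159 and 157 on the SOCS3-null arrays and 543 and 652 on the wildtype arrays (change -1.81, SE 0.12, limma adjusted p = 0.0109), Myc changed by -0.79 (0.0486), and Notum is described above. Nkd1, Znrf3, Cdx1, Cd44, Ascl2 and Tnfrsf19 were not called, 4 others, Sp5, Rnf43, Lgr5 and Cdx2, were too dim to be tested, and T is not analysed here. Among the members that are themselves targets, Lef1 fell, Dkk1 rose and Axin2 was not called. Of the 16 called genes outside the members, counting Tfcp2l1 and Nr5a2, 11 had several probe sets tested; 9 of these had both called and uncalled ones, and 0 had calls in opposite directions.

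**Figure D4:**
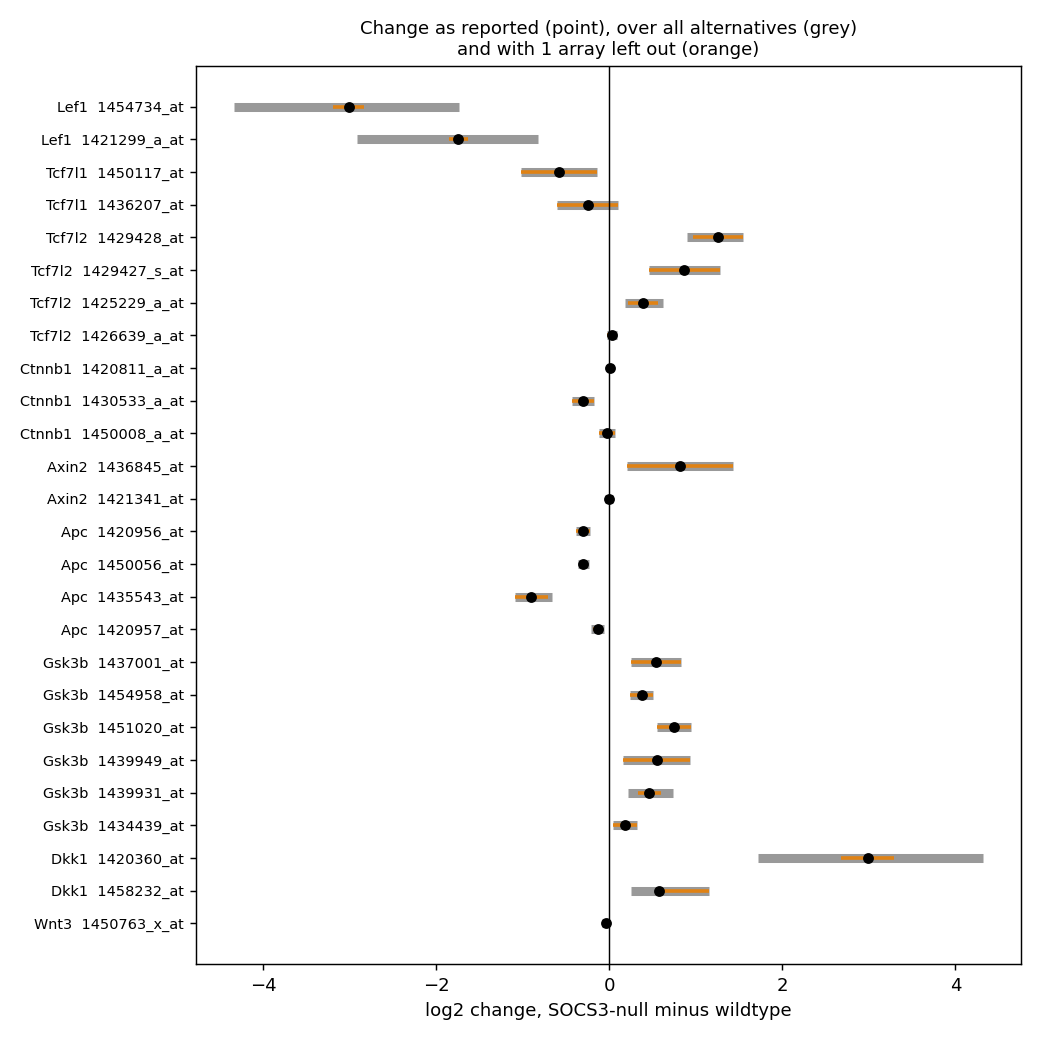
Log2 change (SOCS3-null minus wildtype) of each member probe set as reported (point), its range over all alternatives that tested it (grey) and its range with 1 array left out (orange). The ends of the Lef1 1454734_at range, -4.34 and -1.74, and of the Dkk1 1420360_at range, 4.32 and 1.72, are those at pseudocounts of 1 and 64.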

How the data were processed

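RNA from mouse ES cells was measured on 4 arrays, grouped by the genotype and replicate number in the submitters' labels. The authors deposited 1 intensity per probe set on a linear scale; the sources used here do not give their summarisation or normalization. Values were used without further normalization, as log2(intensity + 16), a scale on which dim genes change too little. Of 45037 probe sets other than the 64 controls, 27022 with a mean at or above the 40th percentile were tested with limma 3.58.1 in R 4.3.3 (lmFit and eBayes, genotype as the only term, two-sided, Benjamini-Hochberg). Gene symbols came from a platform annotation: 34945 probe sets had 1 symbol, 932 several and 9160 none, and 34754 annotated probe sets were found in RefSeq (GRCm38.p6) by gene ID, with 0 symbols changed. All probe sets of the members, the called genes of each of 8 pathway lists (at most 4 with the smallest p), Socs3, Pou5f1, Nanog, Sox2, Zfp42 and 5 genes most like the member with the largest change were named; Esrrb, Klf2 and other uncalled or dim list members were named after their values were seen. Members and lists were chosen with earlier results of these data known. On 10 simulated data sets of 27022 probe sets with 200 changed, 74.1% of changes of 1, 97.6% of 2 and 99.4% of 3 were found, and 5.21% of calls were false. These shares hold for that setting and may not carry over to the arrays, where 4283 probe sets were called. An uncalled gene can have a large change, as Klf2 with -2.14 and Zfp42 with -1.70. Promoter sequences are from RefSeq and were matched by symbol. Figures used matplotlib 3.10.9. The number of arrays limits the precision.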

Additional observations from a re-analysis of the deposited data

How the results depend on the processing

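Against 2 member probe sets called higher, 0 were called without the filter on dim probe sets, 1 with a pseudocount of 64, 1 with the replicate number as a block and 1 when each gene's probe sets were averaged, an alternative chosen after seeing the data. Against 2 called lower, 1 was called with 1 probe set per gene, where Lef1 has only 1. Of the other pathway genes, 2 were called higher without the filter and 3 with the replicate block, against 6, and 5 were called lower without the filter, with an eBayes trend and with the replicate block, against 8. Over all probe sets 1733 were called without the filter and 1993 with the replicate block, against 4283. Leaving out 1 array, which leaves 1 array in a genotype, assumed to vary like the other genotype, and 1 residual degree of freedom, gave 0 limma calls for each of these counts, while 5699 to 8535 probe sets, 3 to 11 of them members, had an unadjusted p under 0.05; these lost calls come with the size of the design and do not bear on stability. Some changes reversed, most of them near 0. Axin2 1421341_at was 0.0094 with quantile normalization and 0.0043 with median centring, and with 1 array left out ran from -0.049 to 0.044. With 1 array left out, Tcf7l2 1426639_a_at ran from -0.026 to 0.085 and Ctnnb1 1450008_a_at from -0.12 to 0.061. The change of Tcf7l1 1436207_at was -0.25, and with 1 array left out it ran from -0.60 to 0.11. It was above 0 only without SOCS3-null replicate 1. The cause of the reversals was not tested. Of the member changes under the alternatives, 330 kept their direction and side of the threshold, 20 lost and 4 gained a call and 7 reversed. Most of the 330 belong to the 22 probe sets that were not called and had no call to lose. Only the 4 called probe sets had a call to lose, so all 20 losses fell on them. Most of the losses were in fits with 1 array left out, which do not bear on stability. The others were Tcf7l2 1429428_at with a pseudocount of 64, without the filter and with the replicate block, and Dkk1 1420360_at without the filter. The replicate numbers are not stated to pair the arrays, and same-numbered arrays deviated from their group means with a correlation of -0.118; with the crossed pairing, also chosen after seeing the data, 2 member probe sets were called higher and 3 lower, Apc 1435543_at among them, and 3845 in all.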
